A study of Mus musculus with 10 samples.

Results

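The genes described here encode the enzymes and regulators that take triglyceride apart inside fat cells. They were the 9 genes Pnpla2, Pnpla3, Lipe, Mgll, Abhd5, G0s2, Hilpda, Ces1d and Ces1f, matched by gene name among the 40503 genes of the deposited table. All 9 passed the filter on low values that left 17038 genes for testing. Polyadenylated RNA was sequenced from gonadal fat (the white adipose depot around the ovary and uterus) of C57BL/6 females aged 12 weeks. The 5 libraries labelled KO came from mice with an inducible deletion in fat of Med19, a subunit of the Mediator coactivator complex, and the 5 control libraries were labelled WT. The labels describe tamoxifen at 100 mg/kg over 5 days for the deletion mice, with tissue taken 14 days afterwards. The sources used here state neither whether the WT mice also received tamoxifen nor which promoter drove the recombinase. Each library is named by its animal number (1, 4, 7, 8 and 17 labelled KO, and 2, 9, 19, 86 and 89 labelled WT).

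Stored triglyceride is broken down one fatty acid at a time on the surface of the lipid droplet. Adipose triglyceride lipase, encoded by Pnpla2, takes the first fatty acid, hormone-sensitive lipase (Lipe) acts on the resulting diglyceride, and monoglyceride lipase (Mgll) releases the last fatty acid and glycerol. Catecholamines speed the pathway through cyclic AMP and protein kinase A, while the coactivator ABHD5 and the inhibitors G0S2 and HILPDA set the activity of the first enzyme.

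Values are RPKM, reads scaled to gene length and library size, so levels can be read across genes. An order between genes of near level depends on the gene length used, which can exceed that of the leading transcript. Whole reads recovered from the RPKM steps gave 14444258 to 20183633 reads per library, and the members rested on 333 reads (Hilpda, lowest library) to 12994 reads (Pnpla2, highest library). A gene was called changed when its Benjamini-Hochberg adjusted p over all 17038 genes was under 0.05 in limma on log2(RPKM + 0.5). The level of Med19 did not separate the labels: it was 6.79 ± 0.85 RPKM (SD, n = 5) in libraries labelled KO and 6.70 ± 0.89 (n = 5) in WT (2-sided exact permutation p = 0.881, smallest possible p = 0.0079). Every direction below is therefore between the libraries as labelled. Of 16 adipocyte markers, which were detected in all 10 libraries, 15 were called lower and 0 higher in the libraries labelled KO. Their summed level was 6707 to 7583 RPKM there and 17809 to 25954 RPKM in WT. The lists were chosen with earlier results of these data known, so the count of markers called is not independent of these data. Of 10 neutrophil and monocyte markers, 5 were called higher, with summed levels of 481 to 855 RPKM against 209 to 396 RPKM; under median-ratio scaling the calls of S100a9 and Ccr2 held, and those of Cxcr2, Retnlg and Mmp8 did not. Of 12 fibroblast and progenitor markers 3 were called higher, of which Dpt (log2 change 0.98) held under both alternative scalings and Lum and Cd55 did not, with summed levels of 2305 to 2620 RPKM against 1805 to 2398 RPKM. Of 8 smooth muscle and pericyte markers, Mcam (-1.01) and Cspg4 (-0.79) were called lower, with summed levels of 201.8 to 251.9 RPKM against 222 to 301 RPKM. Of 14 macrophage markers, 0 had a log2 change below 0 (median 0.25), and Itgam was called higher, a call lost under both alternative scalings. Of 10 endothelial markers, 9 had a change below 0 (median -0.15). Kdr among them was called lower, a call kept in 1 of 10 runs with a library left out. Summed levels of both lists overlapped between the groups. None of the markers in these lists was at 0 in all libraries, and the part of the other cell types in the changes of the members was not tested. In bulk tissue, fewer adipocytes and less RNA per adipocyte cannot be told apart, and this touches every lower value below.

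Of the 9 members, Pnpla2, Lipe and Ces1f were called lower in the libraries labelled KO, Hilpda was called higher, and Mgll, Abhd5, G0s2, Pnpla3 and Ces1d were not called. Mean levels ran from 34.7% of the WT level for Lipe to 145% for Hilpda. Over all 17038 genes tested, 1.95% were called lower and 4% were called higher. The share called higher depended on scaling, at 0.605% with median-ratio scaling and 0.875% with quantile normalization, where 2.45% and 2.30% were called lower. The log2 change was below 0 in 8 of the 9 members, and their median change was -0.64, beside a median of 0.09 over all genes tested. In 4 members, Pnpla2, Lipe, Mgll and Ces1f, every library labelled KO lay below every WT library, a pattern found in 2.15% of the genes tested. In 0 members did every library labelled KO lie above every WT library, which held for 6.96% of the genes tested. The 3 lower calls held in each of 9 alternative analyses, both alternative scalings included, and with any single library left out, whereas the Hilpda call did not hold under either alternative scaling.

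**Figure D1:**
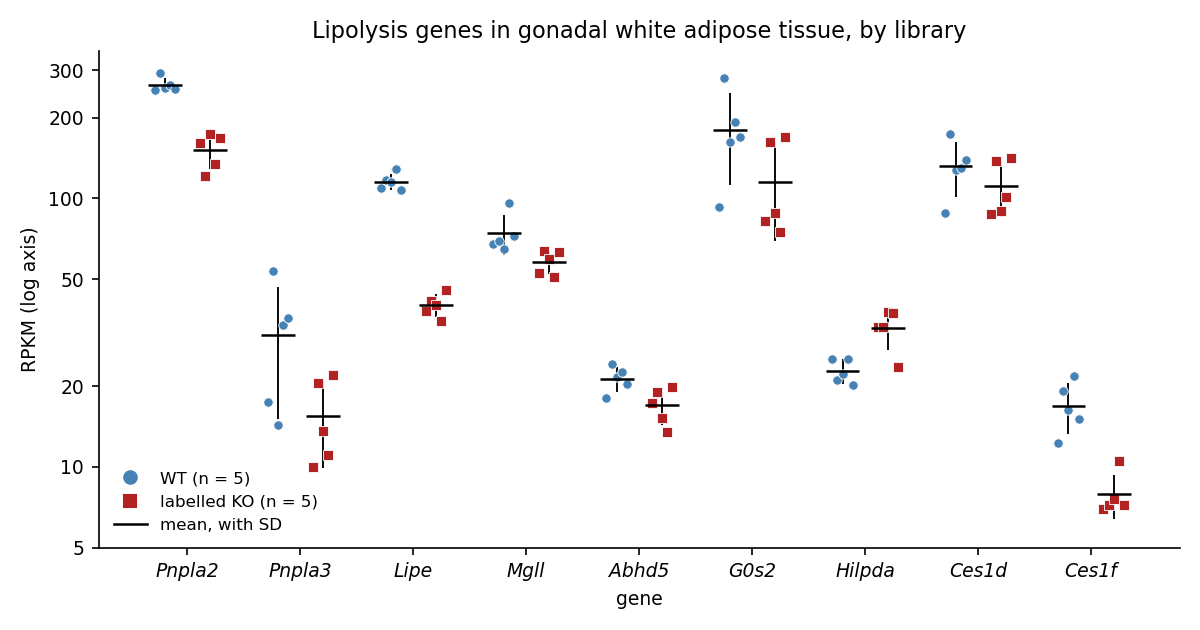
RPKM of each of the 9 genes (log axis) in each library, with circles for the 5 WT and squares for the 5 libraries labelled KO; horizontal bars are group means and vertical lines 1 SD. Lipe had a mean of 40.1 RPKM in the libraries labelled KO and 115.5 RPKM in WT with no overlap, while G0s2 and Ces1d overlapped between the groups.

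The first lipase, Pnpla2, had the highest mean of the members in both groups, although it stood above G0s2 in only 3 of the 5 libraries labelled KO. Its level in WT libraries 2, 9, 19, 86 and 89 was 254, 293, 258, 265 and 255 RPKM. In libraries 1, 4, 7, 8 and 17 labelled KO, it was 161, 121, 173, 135 and 168 RPKM. The WT values lay close together, with animal 9 highest, and the groups did not overlap. The means were 152 ± 22 RPKM (SD, n = 5) in the libraries labelled KO and 265 ± 16 RPKM (n = 5) in WT. The log2 change was -0.82 (SE 0.11, limma adjusted p = 0.00202), and the mean was 57.2% of that in WT. The bases before the transcription start of Pnpla2 are printed because it encodes the enzyme at the head of the pathway. The sequence is from RefSeq, build GRCm38.p6, plus strand, chr7:141454938-141455187, and covers the 250 bases upstream of the RefSeq start. The nearest transcript starts are those of ENSMUST00000164016 (10 bases away, 1.10% of the summed Pnpla2 transcripts) and ENSMUST00000026583 (18 bases, 21.3%). Neither is the most abundant Pnpla2 transcript, ENSMUST00000064151 (47.5%). Capitals mark the GC box GGGCGG on either strand.
Pnpla2: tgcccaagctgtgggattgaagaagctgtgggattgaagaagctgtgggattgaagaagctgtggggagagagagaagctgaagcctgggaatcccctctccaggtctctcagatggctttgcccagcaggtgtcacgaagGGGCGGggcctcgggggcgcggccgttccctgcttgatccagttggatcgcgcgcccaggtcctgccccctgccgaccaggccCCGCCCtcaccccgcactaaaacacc
This window held 2 GC boxes. It held no match on either strand to the E-box CACGTG, the hypoxia response element core ACGTG or the nuclear receptor half-site AGGTCA.

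Lipe, the gene of hormone-sensitive lipase, had the largest decrease of the 9 members. It stood at 109, 117, 115, 128 and 107 RPKM in WT libraries 2, 9, 19, 86 and 89. It stood at 38.1, 41.6, 40.1, 34.8 and 45.5 RPKM in libraries 1, 4, 7, 8 and 17 labelled KO. The highest library labelled KO lay far below the lowest WT library, and the spread within each group was small. Group means were 40.1 ± 4.0 RPKM (SD, n = 5) and 115.5 ± 8.3 RPKM (n = 5), a log2 change of -1.52 (SE 0.08, limma adjusted p = 7.89e-06). In GENCODE M21 a gene on the other strand, 4732471J01Rik, shares 918 exon bases with Lipe, and the sources used here do not state whether reads were counted by strand. That gene averaged 2.00 RPKM in the libraries labelled KO and 3.79 RPKM in WT.

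Mgll, which encodes the monoglyceride lipase of the last step, was not called. It measured 67.4, 69.6, 64.6, 96.1 and 72.8 RPKM in WT libraries 2, 9, 19, 86 and 89. It measured 52.6, 63.5, 59.4, 51.1 and 63.4 RPKM in libraries 1, 4, 7, 8 and 17 labelled KO. The groups did not overlap, but the highest library labelled KO, animal 4, came close to the lowest WT library, animal 19, and WT animal 86 stood above the rest. The means were 58.0 ± 5.9 RPKM (SD, n = 5) and 74.1 ± 12.7 RPKM (n = 5). The log2 change of -0.34 (SE 0.11) did not pass the threshold (limma adjusted p = 0.0971), and its 95% interval ran from -0.59 to -0.09. Gm26588, on the other strand, shares 167 exon bases with Mgll and averaged 0.244 RPKM.

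**Figure D2:**
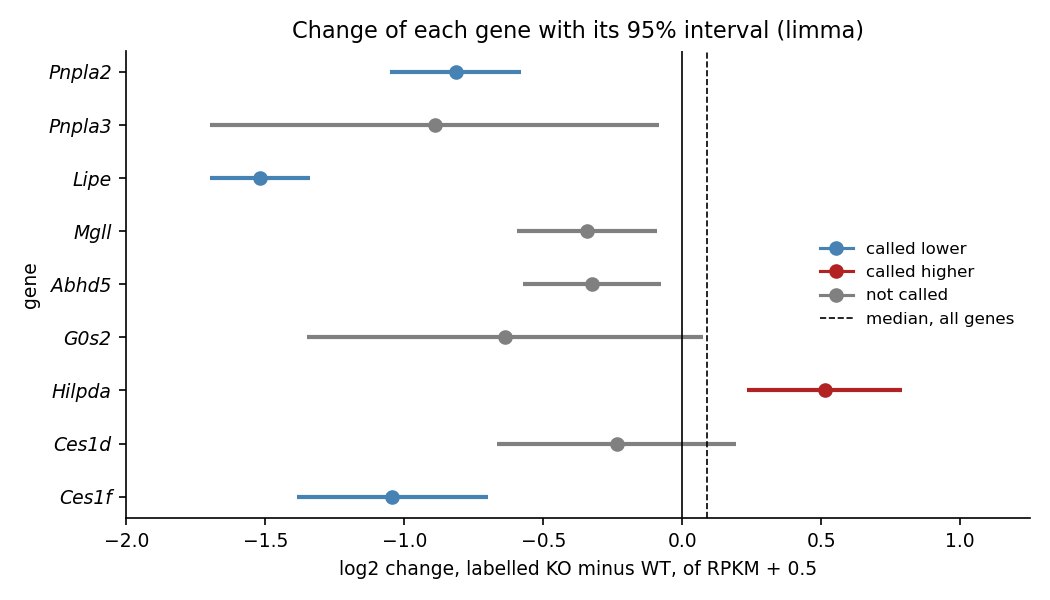
Log2 change (labelled KO minus WT, of RPKM + 0.5) of each gene with its 95% interval from limma over 5 and 5 libraries; the solid line marks 0 and the dashed line the median of all genes tested, 0.09. The intervals of the called genes Lipe, Ces1f and Pnpla2 lie below 0, and Hilpda alone lies above 0.

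Pnpla3, a close relative of Pnpla2 whose protein also sits on lipid droplets, varied widely within both groups. Its level was 17.4, 53.7, 14.3, 33.7 and 35.7 RPKM in WT libraries 2, 9, 19, 86 and 89. It was 10.02, 20.5, 13.6, 11.1 and 22.1 RPKM in libraries 1, 4, 7, 8 and 17 labelled KO. WT animals 2 and 19 sat inside the range of the libraries labelled KO, and the highest WT value was 3.74 times the lowest. The log2 change of -0.89 (SE 0.36) did not pass the threshold (limma adjusted p = 0.165). Gm49513, on the same strand, shares 105 exon bases with Pnpla3, and no level is listed for it.

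Abhd5, the gene of the coactivator of the first lipase, was not called. It read 18.1, 24.1, 21.6, 22.5 and 20.4 RPKM in WT libraries 2, 9, 19, 86 and 89. It read 17.4, 19.0, 15.3, 13.5 and 19.9 RPKM in libraries 1, 4, 7, 8 and 17 labelled KO. The groups overlapped through WT animal 2, which lay below libraries 4 and 17 labelled KO. The log2 change was -0.32 (SE 0.11, limma adjusted p = 0.110). A730085K08Rik, on the other strand, shares 950 exon bases with Abhd5 and averaged 1.16 RPKM over the 10 libraries.

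G0s2, whose protein binds and inhibits the first lipase, had the second highest mean of the members in both groups, although it stood above Ces1d in only 2 of the 5 libraries labelled KO. It measured 92.9, 281, 163, 193 and 169 RPKM in WT libraries 2, 9, 19, 86 and 89. In libraries 1, 4, 7, 8 and 17 labelled KO it measured 82.7, 163, 88.1, 75.0 and 169.9 RPKM. Libraries 4 and 17 labelled KO reached the middle of the WT range, while the other 3 fell below every WT library. The log2 change of -0.64 (SE 0.32, 95% interval -1.35 to 0.07) did not pass the threshold (limma adjusted p = 0.249). The coefficient of variation of G0s2 was 40.2% in the libraries labelled KO and 37.7% in WT, against 14.8% and 6.13% for Pnpla2.

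Hilpda, whose protein also inhibits the first lipase and which is known as a target of hypoxia-inducible factor, was the 1 member called higher. Its level was 25.3, 21.1, 22.2, 25.3 and 20.2 RPKM in WT libraries 2, 9, 19, 86 and 89. It was 33.2, 33.3, 37.7, 37.3 and 23.6 RPKM in libraries 1, 4, 7, 8 and 17 labelled KO. Of the libraries labelled KO, 4 of 5 lay above every WT library and animal 17 lay inside the WT range. Means were 33.0 ± 5.7 RPKM (SD, n = 5) and 22.8 ± 2.4 RPKM (n = 5), with a log2 change of 0.51 (SE 0.13, limma adjusted p = 0.0422). The call was kept in 4 of 9 alternative analyses. It was also lost when any 1 library other than labelled KO 17 or WT 2 was left out, with limma adjusted p values from 0.00574 to 0.0927 over the 10 runs and log2 changes from 0.46 to 0.63.

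The bases before the first RefSeq start of Hilpda are printed because its direction differed from that of the other members (GRCm38.p6, plus strand, chr6:29272238-29272487, with the GC box in capitals). This start is that of ENSMUST00000115289, which made up 21.1% of the summed Hilpda transcripts and was not called (log2 change -0.59).
Hilpda: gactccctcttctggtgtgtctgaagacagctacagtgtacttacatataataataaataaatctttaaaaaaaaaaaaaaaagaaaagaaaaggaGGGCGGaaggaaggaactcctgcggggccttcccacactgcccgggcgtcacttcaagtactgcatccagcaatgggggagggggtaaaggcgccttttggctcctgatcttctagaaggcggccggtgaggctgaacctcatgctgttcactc
The window held 1 GC box and no match to the other 3 motifs. The second RefSeq start of Hilpda, that of the leading transcript ENSMUST00000054445 (log2 change 0.63, not called), lies 138 bases downstream. The 250 bases before that start held 1 match to ACGTG, the core of hypoxia response elements. This core also occurred in windows of members not called higher, with 2 and 1 matches at Mgll and 2 at the upstream start of Lipe. Over 32851 RefSeq promoter windows of the same length, searched on both strands, GGGCGG occurred in 32.7%, ACGTG in 16.6%, AGGTCA in 14.0% and CACGTG, which contains ACGTG, in 6.02%.

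The carboxylesterases Ces1d and Ces1f hydrolyse triglyceride and other esters and belong to a cluster of closely related genes. Ces1f had the lowest mean of the members in both groups, at 12.3, 19.2, 16.3, 21.8 and 15.2 RPKM in WT libraries 2, 9, 19, 86 and 89. In libraries 1, 4, 7, 8 and 17 labelled KO it was 6.95, 7.22, 7.61, 10.5 and 7.23 RPKM. The groups did not overlap, although animal 8 stood above the other libraries labelled KO and animal 2 below the other WT libraries. The means were 7.90 ± 1.47 RPKM (SD, n = 5) and 16.9 ± 3.7 RPKM (n = 5), a log2 change of -1.04 (SE 0.16, limma adjusted p = 0.00467).

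Ces1d was more abundant than Ces1f in every library and was not called. It measured 88.3, 174, 127, 129.8 and 139 RPKM in WT libraries 2, 9, 19, 86 and 89. It measured 87.6, 138, 90.0, 101 and 142 RPKM in libraries 1, 4, 7, 8 and 17 labelled KO. The groups overlapped over most of their range, and the log2 change was -0.24 (SE 0.19, limma adjusted p = 0.50). Reads can be shared among genes of the Ces1 cluster, and the sources used here do not state how such reads were counted. The relatives Ces1a, Ces1b, Ces1e, Ces1g and Ces1h averaged at most 0.292 RPKM in either group, with Ces1h at 0 in every library. Ces1c averaged 1.03 RPKM in the libraries labelled KO and 0.519 RPKM in WT.

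G0s2, Pnpla3, Ces1d and Abhd5 were each highest in animals 17 and 4 among the libraries labelled KO and in animal 9 among WT. Lipe and Mgll were also highest in animals 17 and 4 among the libraries labelled KO, but in animal 86 among WT. The orders of Pnpla2, Ces1f and Hilpda differed among the libraries labelled KO. There, Pnpla2 was highest in animal 7 and lowest in 4, Ces1f was highest in 8, and Hilpda was highest in 7 and lowest in 17. Of the WT libraries, animal 2 was lowest for Pnpla2, G0s2, Ces1d, Abhd5 and Ces1f. It was next to lowest for Pnpla3, Lipe and Mgll and highest for Hilpda. A list of 6 liver-type hepatocyte markers, of which 5 were tested and 0 called, varied between libraries of the same label. Its summed level was 171 and 140 RPKM in libraries 4 and 17 labelled KO and 11.3 to 31.9 RPKM in the other 3. In WT it was 5.26 RPKM in animal 2 and 44.5 to 87.5 RPKM in the other 4. Its defining markers at 0 in all 10 libraries numbered 0, and the part of this signal in the levels of the members was not tested.

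The order of the mean levels differed between the groups. In WT it ran from Pnpla2 through G0s2, Ces1d, Lipe, Mgll, Pnpla3, Hilpda and Abhd5 to Ces1f. The neighbours Lipe and Mgll, and Mgll and Pnpla3, had ranges that did not overlap over the 5 WT libraries, and the other neighbours overlapped. In the libraries labelled KO it ran from Pnpla2 through G0s2, Ces1d, Mgll, Lipe, Hilpda, Abhd5 and Pnpla3 to Ces1f. There, Mgll stood above Lipe in 5 of 5 libraries by gene RPKM. The neighbours whose ranges did not overlap were Ces1d and Mgll, Mgll and Lipe, and Hilpda and Abhd5.

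Ratios of members within a library do not depend on how libraries are scaled, and 5 of them were compared. Mgll to Lipe was 0.560 to 0.749 in WT and 1.38 to 1.53 in the libraries labelled KO, a mean difference of 1.19 on the log2 scale or 2.28-fold. By gene RPKM, Mgll thus stood below Lipe in every WT library and above it in every library labelled KO. This crossing depends on the gene lengths used, 4518 bases for Lipe and 4868 for Mgll. The leading Lipe transcript has 2661 bases. It averaged 54.1 RPKM in the libraries labelled KO, where the leading Mgll transcript averaged 53.7 RPKM. By these transcripts, Lipe stood above Mgll in libraries 1, 4 and 17 labelled KO and below it in 7 and 8. Lipe to Pnpla2 was 0.401 to 0.484 in WT and 0.232 to 0.343 in the libraries labelled KO, a difference of -0.71 on the log2 scale. Each of these comparisons gave a 2-sided exact permutation p = 0.0079, the smallest that this design allows, and 0.0099 after Benjamini-Hochberg adjustment over the 5 ratios. Lipe and Pnpla2 each separated the groups on their own, so these tests are not independent of their lower calls.

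The regulators were compared with the first lipase in the same way. Abhd5 to Pnpla2 was 0.0710 to 0.0851 in WT and 0.0881 to 0.157 in the libraries labelled KO, a log2 difference of 0.48. Hilpda to Pnpla2 was 0.0719 to 0.0996 in WT and 0.141 to 0.277 in the libraries labelled KO, a log2 difference of 1.34 or 2.53-fold. Neither ratio overlapped between the groups, and each gave the exact permutation p = 0.0079 (0.0099 adjusted over the 5 ratios). Pnpla2 separated the groups on its own, so neither p value is independent of its lower call. How often ratios of other genes to Pnpla2 separate the groups was not examined. G0s2 to Pnpla2 ran from 0.365 to 0.959 in WT and from 0.509 to 1.34 in the libraries labelled KO. Those groups overlapped, and the log2 difference of 0.18 did not pass the test (2-sided exact permutation p = 0.643). It changed sign when library 4 labelled KO (-0.045) or WT 2 (-0.025) was left out.

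**Figure D3:**
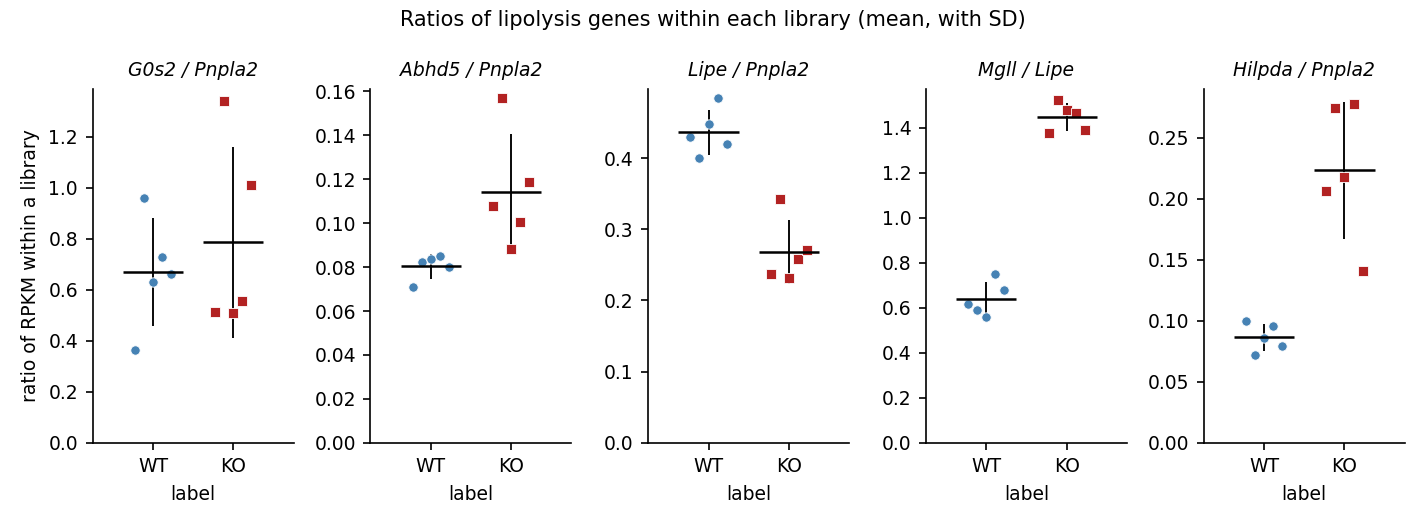
Ratio of RPKM between 2 genes within each library, for WT (circles, n = 5) and libraries labelled KO (squares, n = 5), with means and 1 SD; every vertical axis starts at 0. Mgll to Lipe lies at 0.560 to 0.749 in WT and 1.38 to 1.53 in the libraries labelled KO, and G0s2 to Pnpla2 overlaps between the groups.

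The authors' transcript table held 38 transcripts of the 9 genes, of which 34 passed the same filter. Among them 3 were called lower, 2 of Lipe and 1 of Ces1f, and 0 were called higher. Over all 44475 transcripts tested, 0.452% were called lower and 0.0922% higher. The most abundant Pnpla2 transcript, ENSMUST00000064151, averaged 108 ± 23 RPKM (SD, n = 5) in the libraries labelled KO and 198 ± 33 RPKM (n = 5) in WT. Its groups did not overlap, and its log2 change of -0.88 did not pass the threshold (limma adjusted p = 0.0655). Another Pnpla2 transcript, ENSMUST00000169665, was listed at 0 in library 1 and at 0.314 RPKM in library 7 labelled KO but at 46.0 to 86.4 RPKM in the other 3. The division of Pnpla2 reads among transcripts thus varied between libraries of the same label. The most abundant Hilpda transcript, ENSMUST00000054445, averaged 32.3 ± 4.6 RPKM (SD, n = 5) against 20.6 ± 2.4 RPKM (n = 5). Every library labelled KO lay above every WT library, and the log2 change of 0.63 did not pass the threshold (limma adjusted p = 0.0565). In library 17 labelled KO this transcript was at 25.9 RPKM, and the other Hilpda transcript was listed at 0. Its share was thus 100% there, against 76.1 to 84.7% in libraries 1, 4, 7 and 8. By gene RPKM, library 17 lay inside the WT range, so the separation depends on how reads were assigned to transcripts.

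The leading Lipe transcripts, 2 in number, share 2616 exon bases and differ at their first exon. The RefSeq starts of Lipe lie 5875 bases apart, and the downstream start is 6 bases from that of ENSMUST00000054301 in GENCODE M21. The bases before this start are printed because most Lipe RNA was assigned to its transcript (RefSeq, GRCm38.p6, minus strand, chr7:25390113-25390351).
Lipe: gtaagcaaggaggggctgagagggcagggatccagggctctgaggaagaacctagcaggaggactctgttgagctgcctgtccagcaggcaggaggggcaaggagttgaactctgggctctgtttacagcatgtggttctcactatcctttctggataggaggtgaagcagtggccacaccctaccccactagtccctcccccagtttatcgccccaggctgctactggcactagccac
This stretch held no match to the 4 motifs, so it is in lower case throughout. The 250 bases before the upstream start lie within the first exon of ENSMUST00000003207. They held 6 GC boxes, 1 E-box and 2 matches to ACGTG.

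ENSMUST00000054301 stood at 159, 171, 158, 180 and 165 RPKM in WT libraries 2, 9, 19, 86 and 89. It stood at 52.3, 56.0, 53.4, 44.4 and 64.2 RPKM in libraries 1, 4, 7, 8 and 17 labelled KO. The groups were far apart, with a log2 change of -1.62 (SE 0.10, limma adjusted p = 1.34e-04). The transcript from the upstream start, ENSMUST00000003207, averaged 7.61 ± 0.89 RPKM (SD, n = 5) in the libraries labelled KO and 14.7 ± 1.4 RPKM (n = 5) in WT, a log2 change of -0.91 (SE 0.10, limma adjusted p = 0.00378). Both Lipe transcripts fell, with the more negative change at the downstream start. The downstream-start transcript made up 90.9 to 92.2% of the summed Lipe transcripts in WT and 82.5 to 89.3% in the libraries labelled KO. The mean share was 91.7 ± 0.6% (SD, n = 5) in WT and 87.0 ± 2.6% (n = 5) in the libraries labelled KO, and the groups did not overlap. The 2-sided exact permutation p was 0.0079, and 0.0556 after Benjamini-Hochberg adjustment over the 7 members with at least 2 measured transcripts, which did not pass the threshold. The other 6 members gave exact permutation p values of 0.0873 or more.

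**Figure D4:**
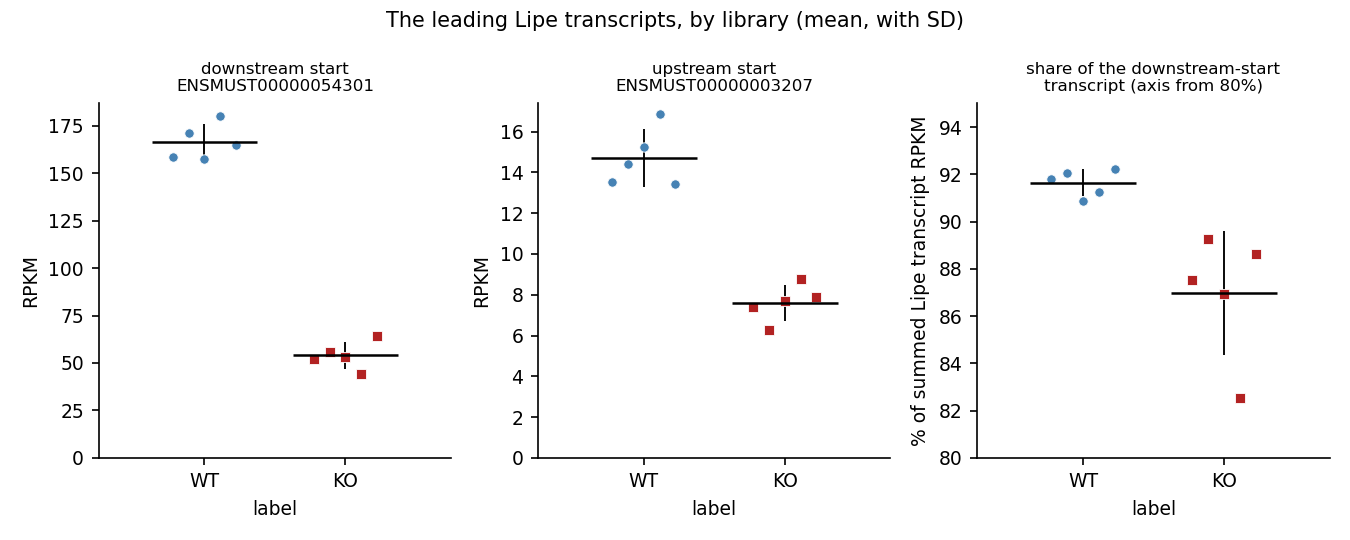
RPKM of the 2 leading Lipe transcripts and the share of the downstream-start transcript in the summed Lipe transcripts, by library (circles WT, squares labelled KO, n = 5 each, mean and 1 SD); the RPKM axes start at 0 and the share axis at 80%. Both transcripts were lower in every library labelled KO, and the share was 82.5 to 89.3% there and 90.9 to 92.2% in WT.

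The leading Ces1f transcript, ENSMUST00000034178, was called lower, as its gene was. It averaged 22.8 ± 5.8 RPKM (SD, n = 5) in WT and 9.84 ± 1.95 RPKM (n = 5) in the libraries labelled KO, a log2 change of -1.15 (limma adjusted p = 0.0376). The call was lost with no filter (limma adjusted p = 0.0616) and kept in 2 of 10 runs with a library left out, those without library 8 labelled KO and without WT 2. The leading transcripts of G0s2, Pnpla3, Mgll, Abhd5 and Ces1d were not called. That of Abhd5, ENSMUST00000176005, has 467 bases, 0 of them coding, and made up 51.9% of the summed Abhd5 transcripts. The Abhd5 transcript with the most coding bases, ENSMUST00000156520, made up 12.0% and was not called either.

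The members were also set against the adipocyte markers of the same library, as values with no test. The median log2 level of the 16 markers was 6.68 in the libraries labelled KO and 8.47 in WT, a difference of -1.80. The markers at the middle of the order by level differed between the groups, so this shift is not the change of a typical marker. The median of the log2 changes of the 16 markers was -1.37, beside -1.52 for Lipe. Differences from the median level depend on this reference, and the list was chosen with earlier results of these data known. Relative to the median level, Lipe stood at -1.34 ± 0.11 (SD, n = 5) in the libraries labelled KO and -1.62 ± 0.18 (n = 5) in WT, a difference of 0.28 with overlapping groups. Ces1f and Pnpla2 stood 0.75 and 0.98 higher relative to the markers, with no overlap. Mgll, Abhd5 and Ces1d stood 1.46, 1.47 and 1.56 higher, G0s2 1.16 higher and Hilpda 2.31 higher, each with no overlap, and Pnpla3 0.91 higher with overlap. Against this median level, Lipe had the smallest difference of the 9 members. With Adipoq alone as the reference, whose own difference was -1.21, Lipe differed by -0.30, Ces1f by 0.17, Pnpla3 by 0.32, Pnpla2 by 0.40 and G0s2 by 0.58, each with overlapping groups. Mgll, Abhd5, Ces1d and Hilpda then stood 0.87, 0.89, 0.98 and 1.73 higher with no overlap, and the smallest difference was that of Ces1f.

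**Figure D5:**
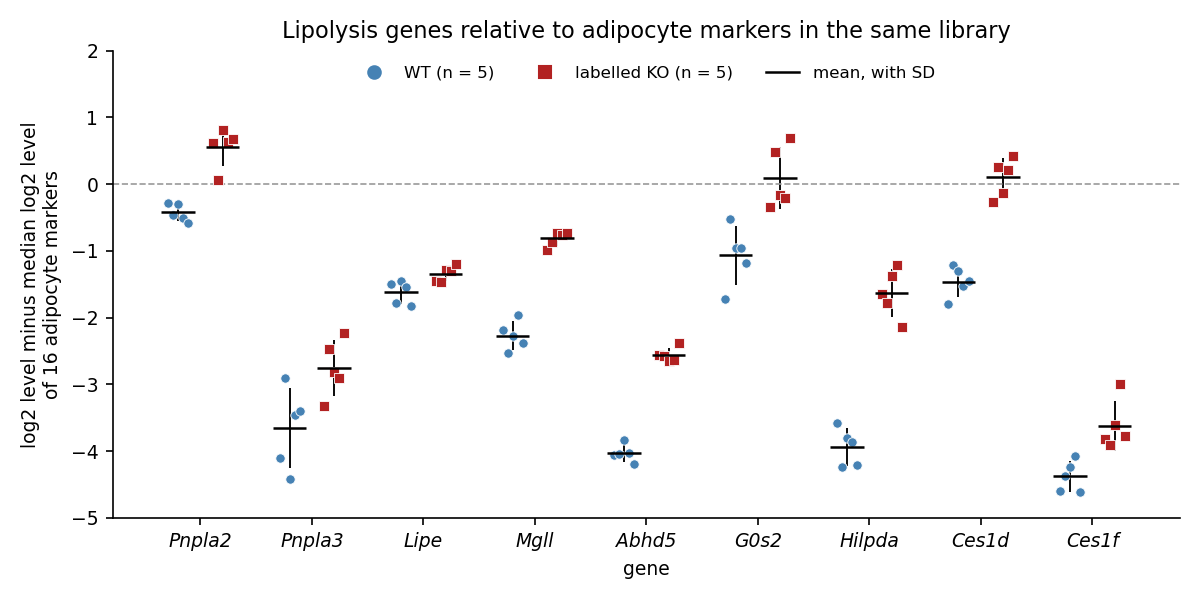
Log2(RPKM + 0.5) of each gene minus the median over 16 adipocyte markers in the same library (circles WT, squares labelled KO, n = 5 each, mean and 1 SD). The groups overlap for Lipe and Pnpla3, and the other 7 genes lie higher relative to this median level in every library labelled KO.

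In a list of 42 genes of lipolysis regulation, 14 were called lower, 0 higher and 28 not called, with a median log2 change of -0.08. The list also holds carriers of the released products such as Fabp4 and Aqp7. Beside this and the lists below, 1.95% of all 17038 genes tested were called lower and 4% higher. Adrb3, the beta-3 adrenergic receptor through which catecholamines start lipolysis, fell by 2.92 on the log2 scale (6.32 ± 2.60 against 51.3 ± 20.6 RPKM, n = 5 each, limma adjusted p = 6.51e-04). Plin1, the droplet coat protein that holds ABHD5 until it is phosphorylated, fell by 1.18 (limma adjusted p = 8.33e-04). Npr3, the clearance receptor for natriuretic peptides, had a log2 change of -1.18 (limma adjusted p = 0.0445), a call kept in 4 of 9 alternatives and in 1 of 10 runs with a library left out. Fabp4, the most abundant gene of the list and a carrier of released fatty acids, fell by 0.77 (limma adjusted p = 0.0164), a call lost with quantile normalization.

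Of 16 tested genes for droplet coats and lipase access, 4 were called lower and 0 higher (median log2 change -0.23). They were Cidec, which drives droplet fusion and fell by 2.08, the coat protein Plin4, which fell by 1.52, Plin1, and Aifm2 (-0.60), which is named after its values were seen and whose call was kept in 7 of 9 alternatives and in 2 of 10 runs with a library left out. Among 17 tested other neutral lipid hydrolases, lipoprotein lipase (Lpl) was called lower (log2 change -0.63, limma adjusted p = 0.0047). In the same list Abhd4, a lysophospholipase, was called higher (0.29, limma adjusted p = 0.0222), a call lost under both alternative scalings, and the median was 0.09. Either call is 1 gene, or 5.88% of those tested in the list, near the shares over all genes. In the list for the fate of released fatty acids and glycerol, 7 of 19 tested genes were called lower and 2 higher (median 0.11). Pck1, which supplies new glycerol phosphate in adipocytes, fell by 3.12 (24.1 ± 5.2 against 218 ± 65 RPKM, n = 5 each, limma adjusted p = 2.69e-05). Acsl1, which activates fatty acids, and Dgat2, which rebuilds triglyceride, fell by 1.43 and 1.41. The 2 higher genes, Gk (0.36), whose call was lost under both alternative scalings, and Cpt1a (0.43), are named after their values were seen. Adrb3, Plin1, Plin4, Cidec, Fabp4 and Lpl also stand in the adipocyte marker list.

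The genes whose profiles lay closest to each called member were found by the smallest root-mean-square difference of centred log2 levels over the 10 libraries. Pnpla2 was nearest to Sik2 (0.088), where the median gene differed by 0.517. Lipe was nearest to Tmem120b (0.125) and Nat8l (0.139), with a median of 0.835 over all genes. Ces1f was nearest to Mcam (0.129), one of the pericyte markers above, and Gm10687 (0.158), with a median of 0.643. Hilpda was nearest to Cap2 (0.112) and Stx11 (0.118), with a median of 0.343. These distances hold the difference between the groups as well as the spread within them.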

How the data were processed

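RNA-seq of gonadal white adipose tissue from 10 mice was analysed, 5 labelled KO and 5 WT. The values are RPKM per gene and per transcript as deposited by the authors. Tools listed in the submitters' processing notes were bcl2fastq, STAR, and featureCounts of Subread. For build, annotation, strand setting and transcript quantifier, nothing is stated (not given in the sources used here), and the unit of the transcript table rests on the deposited table's name. Rows repeated for one identifier were used once. RPKM steps gave whole reads for 100% of 25122 genes above 0 in at least 3 libraries (tolerance 0.001 reads), used for depth and for the voom alternative.

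Genes with at least 0.5 RPKM in at least 5 of 10 libraries were tested with limma 3.58.1 (R 4.3.3) on log2(RPKM + 0.5), with trended, robust moderation, Benjamini-Hochberg adjustment over all genes and a threshold of 0.05. A fold on this scale understates changes of low genes. The same was done for transcripts. Ratios, shares and Med19 had 2-sided exact permutation tests. The script was tested on simulated data. Gene and transcript models came from GENCODE M21 and promoter windows from RefSeq, which held 10 windows for 7 of the 9 members.

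All 9 members are named, with, from each pathway list, up to 3 called genes of largest change and the most abundant gene, and the 2 nearest profiles of each called member, of which 1 is not reported here. The members and lists were chosen with earlier results of these data known. Alternatives were other pseudocounts (0.1, 1), filters (none, 1 RPKM), scalings (median-ratio, quantile), moderation, array weights, voom, and leaving out each library. Samples are separate animals by their titles. The labels give no batch or sequencing date.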

Additional observations from a re-analysis of the deposited data

Results flagged for a closer look

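In 3 of 42 groups of 5 values examined (RPKM, ratios and transcript shares of the members), 1 library stood apart by Dixon's criterion; chance alone gives about 1 group in 20. Pnpla2 was 293.2 RPKM in WT animal 9, where the next WT library was at 264.9 RPKM. Mgll was 96.1 RPKM in WT animal 86, against 72.8 RPKM in the next. Ces1f was 10.5 RPKM in library 8 labelled KO, against 7.61 RPKM in the next library of that label. The Pnpla2 and Ces1f calls held without these libraries, and Mgll was not called with or without animal 86.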

How the results depend on the processing

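The lower calls of Pnpla2, Lipe and Ces1f held in all 9 alternatives and all 10 runs with a library left out, and Mgll, Abhd5, G0s2, Pnpla3 and Ces1d were called in none. The number of members called higher was 0 with array weights, with moderation without trend, with median-ratio scaling, with quantile normalization and with no filter, and 0 to 1 with a library left out. Over all genes, main counts of 332 lower and 681 higher (67.2% higher) became 417 and 103 with median-ratio scaling (19.8% higher) and 392 and 149 with quantile normalization (27.5% higher); higher calls were 292 with no filter. With a library left out, lower calls ranged from 206 (without KO 1) to 314 and higher calls from 188 (without KO 1) to 689, falling more than 1.5 times except without KO 4 (689) or WT 2 (536). Droplet coat genes called higher were 2 with array weights, 1 with voom and 0 to 1 with a library left out (1 without KO 7). Other hydrolases called higher were 0 with either scaling, 2 with voom and 0 to 1 with a library left out (0 without KO 1, KO 8, WT 86 or WT 89). Fatty acid fate genes called higher were 1 with either scaling and 1 to 3 with a library left out (1 without KO 1, 8 or 17 or WT 9, 19 or 89). Member transcripts called lower, 3 in the report, were 2 with no filter, 4 with quantile normalization and 2 to 3 with a library left out; those called higher were 1 with the filter at 1 RPKM and 0 to 1 with a library left out. The log2 difference of G0s2 to Pnpla2 ranged from -0.045 (without KO 4) and -0.025 (without WT 2) to 0.323. The cause of these changes was not tested. No paired analysis was possible because no animal number occurs under both labels.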

Other observations

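Within-group profiles were examined after the spread of G0s2 had been seen. With each gene centred on its own group, the closest of the tested genes to G0s2 was Thrsp, a gene of the lipogenic programme (root-mean-square difference 0.142, where the median gene differed by 0.525). Thrsp measured 161 and 164 RPKM in libraries 4 and 17 labelled KO and 71.0 to 77.8 RPKM in the other 3. In WT it measured 201 RPKM in animal 2, 692 RPKM in animal 9 and 303 to 365 RPKM in the other 3. Aacs, which makes acetoacetyl-CoA for lipid synthesis, was also among the 8 closest (0.217), at 30.4 and 26.5 RPKM in libraries 4 and 17 labelled KO and 18.7 to 20.1 RPKM in the other 3. Apoa5, Plg, Kng1 and Itih2, genes that liver expresses strongly, belonged to the same 8 and stood at 1.80 RPKM at most in any library. Ces1d was another of the 8 (0.235), and its own closest gene was the clock gene Per3 (0.089), at 22.1 RPKM in WT animal 9 and 11.8 RPKM in WT animal 2.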
